A study of Arabidopsis thaliana with 53 samples.

Results

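The genes described here lie inside an inversion on chromosome 2 that the study's long-read sequencing detected in BR-like dwarf plants of Arabidopsis thaliana and did not detect in a relative without the phenotype. Members were chosen by gene identifier, from AT2G33720 up to but not including AT2G37630, which is Asymmetric leaves 1 (AS1). Of 420 genes in this stretch of the count table, 8 were left out by name as not analysed here, 89 did not reach 10 counts in at least 4 of the 53 libraries, and 323 were kept, out of 27501 genes in all. In the TAIR10.1 annotation the 323 genes spread over chr2:14263732-15783480, a stretch of 1519.7 kb measured from the outer end of AT2G33720 to the outer end of AS1. These outer ends stand in for the breakends, because the breakends themselves were mapped on another assembly and were not converted. Expression was not used to choose the genes, apart from the count minimum. AT2G33720 passed that minimum only through the BR-like dwarf plants.

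Rosette leaf mRNA was sequenced from single plants. The 6 BR-like dwarf plants were M3 plants, in the second generation after seedlings grown on 160 µM etoposide, an inhibitor of topoisomerase II, and came from M2 families 1A_14 (replicates 1 to 3) and 1A_20 (replicates 4 to 6). The 4 relatives without the phenotype were M3 plants of the same etoposide-treated line, all of M2 family 1A_4, so family and phenotype cannot be told apart between the groups. The 9 DMSO plants, of lines C13, C23 and C4_8, descended from seedlings grown on the solvent alone. Their labels say M2 while the study's methods say M3, so their generation is not certain. All plants of a line share 1 treated ancestor, and the leaf libraries say nothing of other organs. The labels do not give the zygosity of the inversion in each plant.

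An inversion turns a segment around without adding or removing DNA. Genes within it keep their own neighbours and their copy number, while at each end a gene comes to lie beside sequence that was far away. In plants, expression can be altered at such an end when a gene is cut from its promoter or placed beside another gene's regulatory sequence. AS1 encodes a MYB transcription factor that, with AS2, keeps class I KNOX homeobox genes such as those of the shoot meristem silent in leaves. AT2G33720 encodes a protein of the AP2/B3-like transcriptional factor family.

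The sequences that place both end genes are shown first, because the description by position is counted from there. Each line gives the 30 bases of TAIR10.1 directly upstream of the annotated start, 5′ to 3′ in the direction of the gene, with the base next to the start in capitals.
AT2G33720, plus strand, chr2:14263702-14263731: gacgacatcttgagaatcgaacgagaatgA
AS1, minus strand, chr2:15783481-15783510: taaactttttctctctttttttttttaaaG
AT2G33720 lies at chr2:14263732-14265202 on the plus strand, so its start points towards the left end. AS1 lies at chr2:15781232-15783480 on the minus strand, so its start points towards the right end. With the ends taken there, turning the segment around brings the start of AT2G33720 to face the sequence upstream of AS1. Of the 30 bases, 13 were G or C upstream of AT2G33720 and 5 upstream of AS1.

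Total counts were between 38571042 and 116654254 per library in the 3 groups. DMSO replicate 2 was left out of the main comparisons, as it was from the authors' own fit. Of the markers used to check the tissue, all 4 leaf genes were detected in each group. Their summed level was 13231 to 24269 CPM (counts scaled to the library's total after TMM scaling) in dwarf plants. It was 12225 to 33058 CPM in relatives and 10445 to 19136 CPM in DMSO plants. Within that sum the photosystem genes CAB3 and LHCA1 had medians of 3624 and 2377 CPM in dwarf plants. Their medians were 838 and 1997 in relatives and 392.4 and 1079 in DMSO plants, and all dwarf plants were above all DMSO plants in both. RBCS1A and GAPA, also among the 4, had lower medians in dwarf plants, at 9338 and 1356 CPM. They had 11912 and 1746 in relatives and 12317 and 1768 in DMSO plants, and the groups overlapped. Among 5 shoot meristem markers, CLV3 and WUS had 0 counts in every group, while the summed level was 7.58 to 11.3 CPM in 5 dwarf plants, 0.126 in dwarf replicate 4, 0 to 0.230 in relatives and 0 to 0.191 in DMSO plants. Most of that sum was SHOOT MERISTEMLESS (STM), a class I KNOX gene, with a median of 8.67 CPM in dwarf plants and 0 in replicate 4. Summed flower markers were 0.506 to 2.61 CPM in dwarf plants, 0.414 to 1.49 in relatives and 0 to 1.47 in DMSO plants. The 3 tapetum and pollen markers summed to at most 0.126 CPM and the 3 root markers to at most 0.525 CPM in any plant of the 3 groups. Dwarf replicate 4 therefore stood apart from the other dwarf plants, and results that rest on it are given with and without it. It was singled out after the data were seen, so values without it are a description. In these bulk samples, fewer cells of a type and less RNA per cell cannot be told apart.

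AS1, the gene at the right end, served as the check of the labels. Its level was 8.55 to 19.98 CPM in the 6 dwarf plants, with a median of 12.9 CPM. The 4 relatives had 104, 61.7, 73.9 and 90.3 CPM, and the 8 DMSO plants 45.9 to 115 CPM with a median of 83.7 CPM. Every dwarf plant, replicate 4 included at 11.2 CPM, was below every control plant. AS1 was lower in dwarf plants by a log2 fold change of -2.62 ± 0.29 (SE) against relatives and -2.58 ± 0.26 against DMSO plants, with adjusted p of 0.00016 and 2.86e-05 in edgeR's quasi-likelihood test.

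AT2G33720, the gene at the left end, had the largest rise among the tested members in both comparisons, from a level at or near 0. The counts in dwarf replicates 1 to 6 were 125, 29, 70, 0, 32 and 64, equal to 2.72, 0.543, 1.27, 0, 0.768 and 1.30 CPM. All 4 relatives had 0 counts, and among the DMSO plants only replicate 7 had any, with 2 counts. Thus 5 of 6 dwarf plants lay above every control plant, and replicate 4, in which STM was also at 0, lay with the controls. Against a floor of 3 counts over the relatives, the level in dwarf plants was at least 71.4-fold higher, and against the 2 counts of the DMSO plants the ratio was 261-fold with a 95% exact counting interval of 71.5 to 2161. The gene entered the table of members and the fit through the dwarf plants alone, so no test of this difference is given and the counts are a description. Across the 47 libraries of all other groups, 41 had 0 counts, and the 6 others held 15 counts together.

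**Figure D1:**
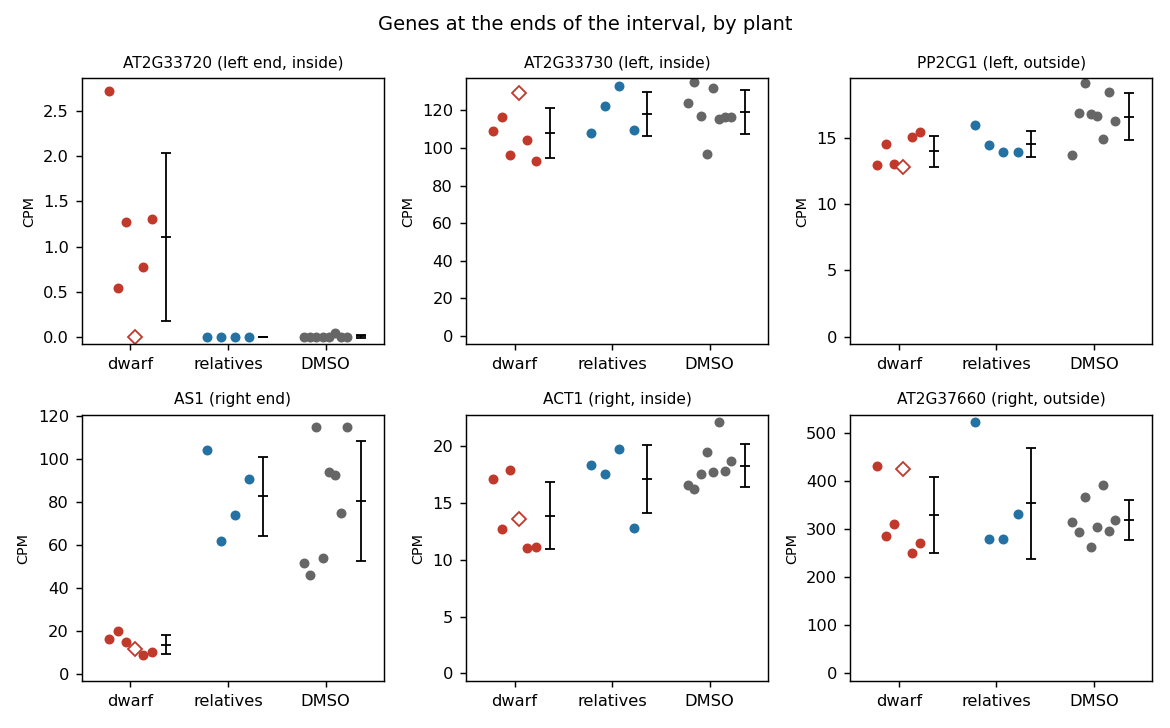
Expression in CPM by plant for 6 genes at the ends of the interval, in BR-like dwarf plants (red), relatives (blue) and DMSO plants (grey, without replicate 2). Black bars are mean ± SD, and the open diamond is dwarf replicate 4. AT2G33720 is above 0 in 5 of 6 dwarf plants, AS1 is lower in all 6, and the other 4 genes overlap between groups.

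None of the other members next to the ends passed an adjusted p of 0.05 against relatives. On the left side, the next 5 tested members inside were AT2G33730, annotated as a P-loop nucleoside triphosphate hydrolase, AT2G33735, a DnaJ-domain chaperone, CUTA, PUP2, a purine permease, and AT2G33760, a pentatricopeptide repeat protein. Their log2 fold changes against relatives were -0.13, 0.11, 0.11, 0.91 and -0.12, and none passed an adjusted p of 0.05 against DMSO plants either. AT2G33730, with its midpoint 2.91 kb from the left end, had 93.0 to 129 CPM in dwarf plants, 108, 122, 133 and 110 CPM in relatives and 96.9 to 135 CPM in DMSO plants, so the 3 groups overlapped. PUP2, at 8.83 kb, came nearest to the threshold. It had 2.31 to 4.37 CPM in dwarf plants and 1.77, 1.404, 1.70 and 1.98 CPM in relatives, with no overlap, but 1.46 to 3.22 CPM in DMSO plants, with overlap (adjusted p = 0.077 and 0.0722 in edgeR).

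On the right side, the 6 members nearest the end were ACT1, an actin, AT2G37610, AT2G37600, a ribosomal protein of the L36e family, DOF2.4, a zinc-finger transcription factor, AT2G37585 and AT2G37580. Their log2 fold changes against relatives were -0.30, -0.13, -0.15, 0.27, 0.09 and -0.78, with adjusted p between 0.131 and 0.972 in edgeR. AT2G37580 had 1.53 to 7.26 CPM in dwarf plants, 7.80, 7.56, 8.999 and 8.36 CPM in relatives, with no overlap, and 5.23 to 8.67 CPM in DMSO plants, with overlap (adjusted p = 0.131 and 0.171). ACT1 overlaps AS1 by 330 bp on the opposite strand. It had 10.995 to 17.9 CPM in dwarf plants against 18.3, 17.6, 19.7 and 12.8 CPM in relatives and 16.3 to 22.1 CPM in DMSO plants, and the groups overlapped. Its log2 fold change of -0.40 ± 0.13 against DMSO plants passed 0.05 (adjusted p = 0.0411), but it lost the call when any of 12 of the 18 libraries was left out.

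Just outside, the nearest tested genes on the left were AT2G33710, PP2CG1 and AT2G33680, with log2 fold changes against relatives of -0.58, -0.06 and -0.40. On the right they were EXP3, an expansin that loosens cell walls, AT2G37650 and AT2G37660, at 1.02, 0.16 and -0.11. Of these 6, only EXP3 passed an adjusted p of 0.05, against DMSO plants (log2 fold change 1.81 ± 0.50, adjusted p = 0.022 in edgeR). It had 5.59 to 53.1 CPM in dwarf plants, 26.2, 6.36, 5.25 and 4.95 CPM in relatives and 2.77 to 9.99 CPM in DMSO plants.

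Of 323 members, 306 had enough counts for the edgeR fit of the 18 plants and 17 did not. With a call set at an adjusted p below 0.01 and a change above 2-fold, 0 of 306 members were called against relatives, beside 0.0871% of the 19515 genes tested. DESeq2 called 11 by the same rule, or 3.59%, beside 1.59% of all genes. When all 12 control plants were treated as 1 group, 11 members were called (3.59%, beside 2.35% of all genes) and 46 passed an adjusted p of 0.05 (15%, beside 13.1%). Without dwarf replicate 4, edgeR called 5 against relatives (1.63%, beside 0.754% of all genes). At an unadjusted p below 0.05 there were 65 members (21.2%, beside 17.6% of all genes), of which 43 were higher (14.1%, beside 8.73% of all genes) and 22 lower (7.19%, beside 8.86%). At an adjusted p below 0.05 without a fold minimum there were 7 members, or 2.29%, beside 1.97% of all genes: 2 were higher (1.13% of all genes) and 5 lower (0.84%). The median log2 fold change was 0.02 over the members and -0.02 over all genes, and the median absolute value was 0.21 for both. The count of 7 rose to 21 without dwarf replicate 4 (6.86%, beside 3.59% of all genes in that fit). It fell to 0 without relative replicate 4, to 2 without dwarf replicate 3 or 6, and to 3 without dwarf replicate 2 or 5 or relative replicate 2. For the fits that lowered the count, the share of all genes is not given, so a change in the members cannot be told from a change in all genes. In DESeq2 the count was 23 (5.75% of all genes), and these included the 7. For 18 tested members, fewer than 4 dwarf or fewer than 4 control plants reached the count minimum, and 5 of them are among the counts given: AT2G33720, WRKY35 and RAX2 reached it in more dwarf than control plants, UGT73C1 and YLS9 in no dwarf plant. The entry of these 5 into the fit rested on the side where they were high, so their p-values are a description. Without the 18, 288 members were left, with 5 at an adjusted p below 0.05 against relatives, and against DMSO plants 44, with 10 called. The shares of all genes given here still include genes that entered through 1 side, so these counts are not set beside them.

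Against DMSO plants, 14 of 306 members were called (4.58%, beside 2.67% of all genes), 7 of them higher (1.64% of all genes) and 7 lower (1.03%). At an adjusted p below 0.05 without a fold minimum there were 49 members, or 16.0%, beside 14.3% of all genes, with 27 higher (7.26% of all genes) and 22 lower (7.03%). The median log2 fold change was 0.02 for members and -0.02 for all genes, and the median absolute value 0.29 and 0.25. The 14 calls became 7 without dwarf replicate 3 or replicate 6, and the 49 became 28 without replicate 6. The share of all genes in those fits is not given, so a change in the members cannot be told from a change in all genes. Both comparisons use the same 6 dwarf plants, so their values are not independent. Between relatives and DMSO plants, 0 members were called (0% of all genes) and 0 passed an adjusted p of 0.05 (0.0102% of all genes) in edgeR. At an unadjusted p below 0.05 there were 25 members, beside 8.06% of all genes, and DESeq2 gave 0 calls (0.0564% of all genes) and 1 member at an adjusted p below 0.05 (0.512%).

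The summed level of the 323 genes was 13180.2 to 14013 CPM in dwarf plants, 11865 to 13389 CPM in relatives and 11550.0 to 13651 CPM in DMSO plants, so the groups overlapped. The most abundant member was AT2G37220, a plastid RNA-binding protein, at a mean of 1129 CPM over the 18 plants. Levels ran from 0.0207 CPM upwards with a median of 12.9 CPM, and 59 members were below 1 CPM. Among the 89 genes under the count minimum, 47 had 0 counts in all dwarf plants and 15 had 0 in all 53 libraries. The one with most counts in dwarf plants, chosen after its values were seen, was AT2G36610, with 54 counts there and 0 in the relatives and the 8 DMSO plants.

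**Figure D2:**
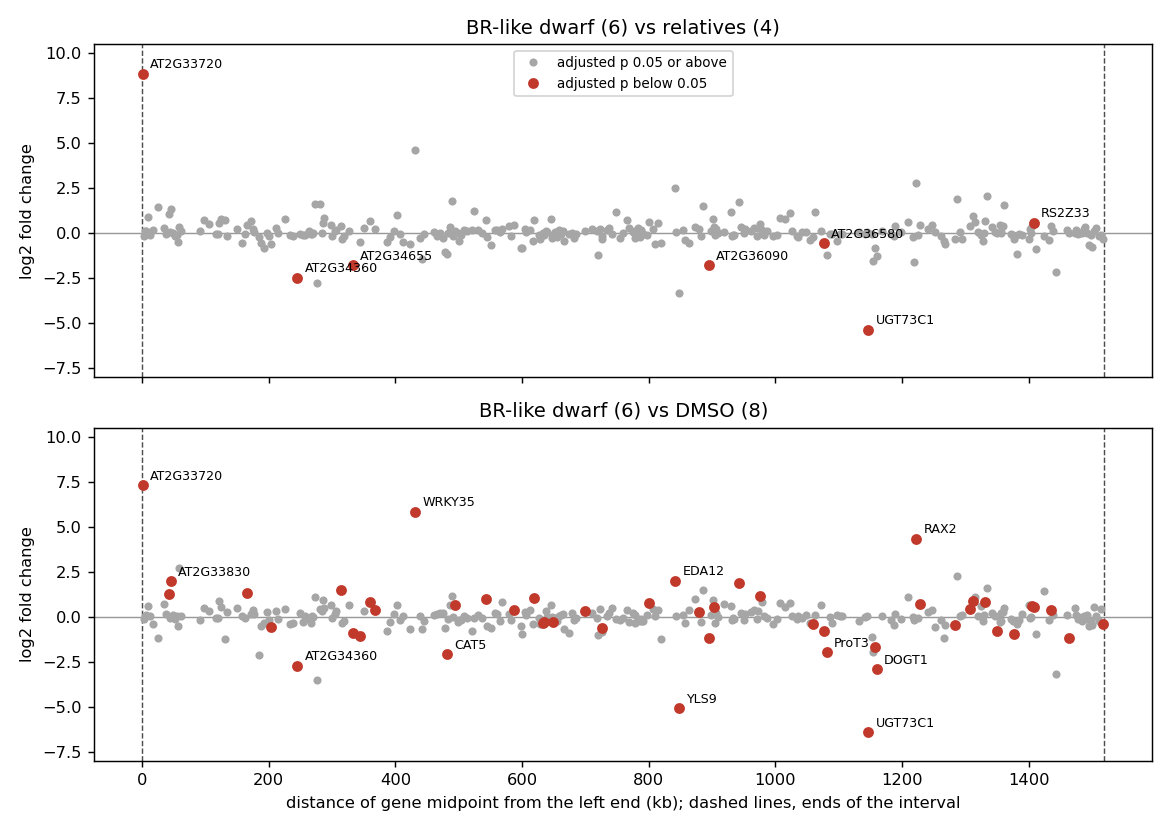
Log2 fold change of 306 genes by distance of the gene's midpoint from the left end in kb, for BR-like dwarf plants against relatives (top) and DMSO plants (bottom). Red points have an adjusted p below 0.05 (7 and 49 genes), with AT2G33720 at the left end the highest in both panels. The other red points of the top panel lie more than 100 kb from the nearer end, and those of the bottom panel are more widely spread.

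The changes were also set out by distance from the ends. Against relatives, the members inside the interval with an adjusted p below 0.05 numbered 1 of 8 within 10 kb of the nearer end, 0 of 22 at 10 to 50 kb, 0 of 14 at 50 to 100 kb, 2 of 61 at 100 to 250 kb, 3 of 90 at 250 to 500 kb and 1 of 111 farther in. The median absolute log2 fold change against relatives in these 6 bins was 0.14, 0.13, 0.18, 0.31, 0.22 and 0.21, beside 0.21 over all genes. The single member within 10 kb was AT2G33720, which entered the fit through the dwarf plants alone, so its count here is a description. The 30 members within 50 kb had a median absolute value of 0.14, with 0.15 on the left and 0.14 on the right.

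Against DMSO plants, members at an adjusted p below 0.05 numbered 2, 2, 2, 11, 16 and 16 in the same bins, or 25%, 9.09%, 14.3%, 18.03%, 17.8% and 14.4%. The median absolute log2 fold change was 0.32, 0.19, 0.29, 0.33, 0.33 and 0.25. Within 50 kb 3 of 30 members were called (10%, beside 2.67% of all genes). They were AT2G33720, SPL3 and AT2G33830, all on the left, where 14 members were tested (21.4%). Because AT2G33720 entered the fit through the dwarf plants alone, these shares and the 25% nearest the ends are a description. On the right, 0 of 16 members within 50 kb were called, and 1, ACT1, passed an adjusted p of 0.05.

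Outside, 423 genes within 1000 kb of an end were tested, and 8 passed an adjusted p of 0.05 against relatives (1.89%) and 71 against DMSO plants (16.8%). Their median absolute log2 fold change was 0.21 against relatives and 0.27 against DMSO plants. These values are close to those inside, and no test of the difference was made. Members on the plus strand (151) and on the minus strand (155) had median log2 fold changes against relatives of 0.03 and 0.02, with 5 and 2 members at an adjusted p below 0.05.

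**Figure D3:**
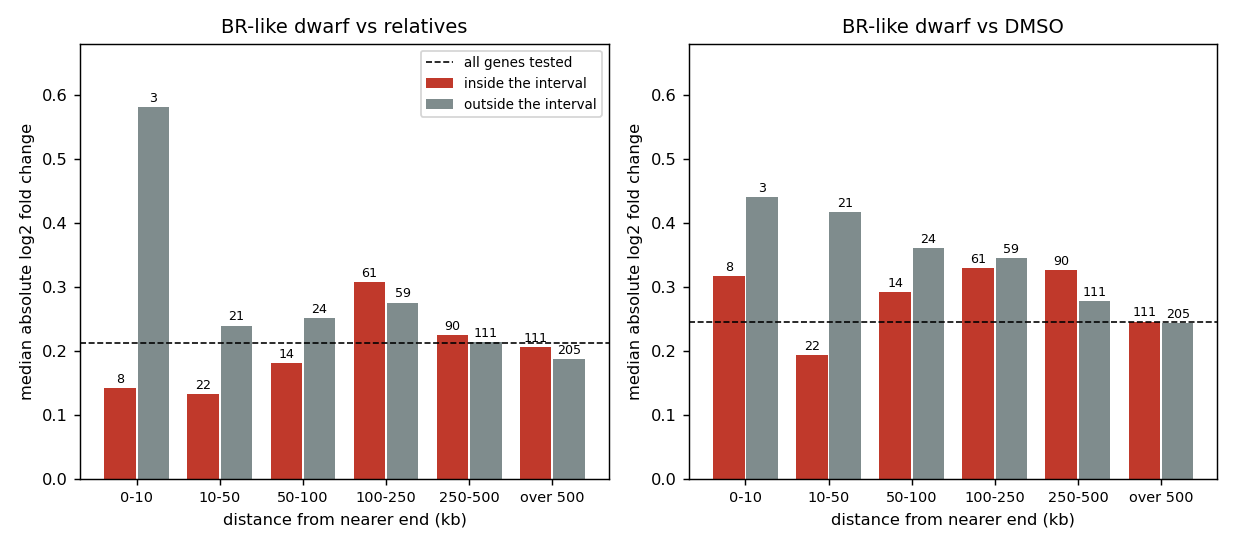
Median absolute log2 fold change by distance from the nearer end, for genes inside (red) and outside (grey) the interval, with the number of genes above each bar and the median of all genes tested as a dashed line. Bars nearest the ends rest on 8 genes inside and 3 outside, and the inside bars against relatives run from 0.13 to 0.31.

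Of the 7 members at an adjusted p below 0.05 against relatives, the other 6 lay 112 to 624 kb from the nearer end. RS2Z33, a splicing factor with a zinc knuckle, was the second that was higher. It had 79.6 to 122 CPM in dwarf plants with a median of 103 CPM, 65.9, 73.0, 65.9 and 66.1 CPM in relatives, and 54.4 to 85.8 CPM in DMSO plants. Dwarf plants were above all relatives and overlapped the DMSO plants. The log2 fold change was 0.59 ± 0.14 against relatives (adjusted p = 0.0383) and 0.51 ± 0.11 against DMSO plants (adjusted p = 0.0069).

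AT2G34360, a MATE efflux protein (a family that exports small molecules), and UGT73C1, a glucosyltransferase, were the 2 members that were lower against both controls with a call against DMSO plants. AT2G34360 had 0 to 0.480 CPM in dwarf plants with a median of 0.348 CPM, 0.713, 2.33, 1.85 and 1.66 CPM in relatives, and 0.800 to 3.86 CPM in DMSO plants. Every dwarf plant was below every control plant. It changed by -2.48 ± 0.61 (log2) against relatives (adjusted p = 0.043) and -2.72 ± 0.56 against DMSO plants (adjusted p = 0.00409).

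AT2G34655, an uncharacterized protein, had 3.92 to 10.08 CPM in dwarf plants with a median of 4.90 CPM and 16.98, 22.9, 12.3 and 27.996 CPM in relatives, with no overlap. The DMSO plants had 6.08 to 15.8 CPM and overlapped the dwarf plants. It had the smallest adjusted p of the members against relatives, 0.0113, with a log2 fold change of -1.79 ± 0.31, and against DMSO plants -0.89 ± 0.27 (adjusted p = 0.0345). The larger distance is to the relatives, whose values were mostly above those of the DMSO plants.

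AT2G36090, an F-box protein of the family that selects proteins for degradation, had 0.774 to 1.79 CPM in dwarf plants, 6.54, 3.84, 2.50 and 3.88 CPM in relatives and 1.03 to 5.00 CPM in DMSO plants. Dwarf plants were below all relatives (log2 fold change -1.77 ± 0.38, adjusted p = 0.0238) and overlapped the DMSO plants (-1.18 ± 0.33, adjusted p = 0.024). AT2G36580, a pyruvate kinase of glycolysis, had 37.6 to 56.4 CPM in dwarf plants, 53.4, 70.0, 75.5 and 62.4 CPM in relatives and 59.9 to 96.8 CPM in DMSO plants. All dwarf plants were below all DMSO plants, and 1 was above the lowest relative. The log2 fold change was -0.56 ± 0.13 against relatives (adjusted p = 0.0407) and -0.78 ± 0.12 against DMSO plants (adjusted p = 0.00054).

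These calls against relatives lie close to the threshold. Over the 18 fits that leave out 1 plant, the adjusted p reached 0.106 for AT2G34360, 0.0536 for AT2G34655, 0.0656 for AT2G36090, 0.122 for AT2G36580, 0.0779 for UGT73C1 and 0.1002 for RS2Z33, and without relative replicate 4 none of the 7 passed. Only 4 members had dwarf plants that did not overlap with any of the 12 controls (1.11% of all genes). AT2G34360 and UGT73C1 were below (0.507% of all genes), and AT2G37050, a leucine-rich repeat kinase, and AT2G37120, an S1FA-like DNA-binding protein, were above (0.6%). With DMSO replicate 2 kept, UGT73C1 overlapped and the other 3 did not. The latter pair was named after their values were seen. AT2G37120 had 15.3 to 25.1 CPM in dwarf plants against 15.1, 13.3, 12.1 and 9.53 CPM in relatives and 8.11 to 15.2 CPM in DMSO plants (adjusted p = 0.0719 and 0.00242 in edgeR). AT2G37050 had 50.1 to 58.3 CPM against 48.1, 32.9, 33.7 and 46.99 CPM and 28.7 to 48.4 CPM (adjusted p = 0.163 and 0.0266).

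**Figure D4:**
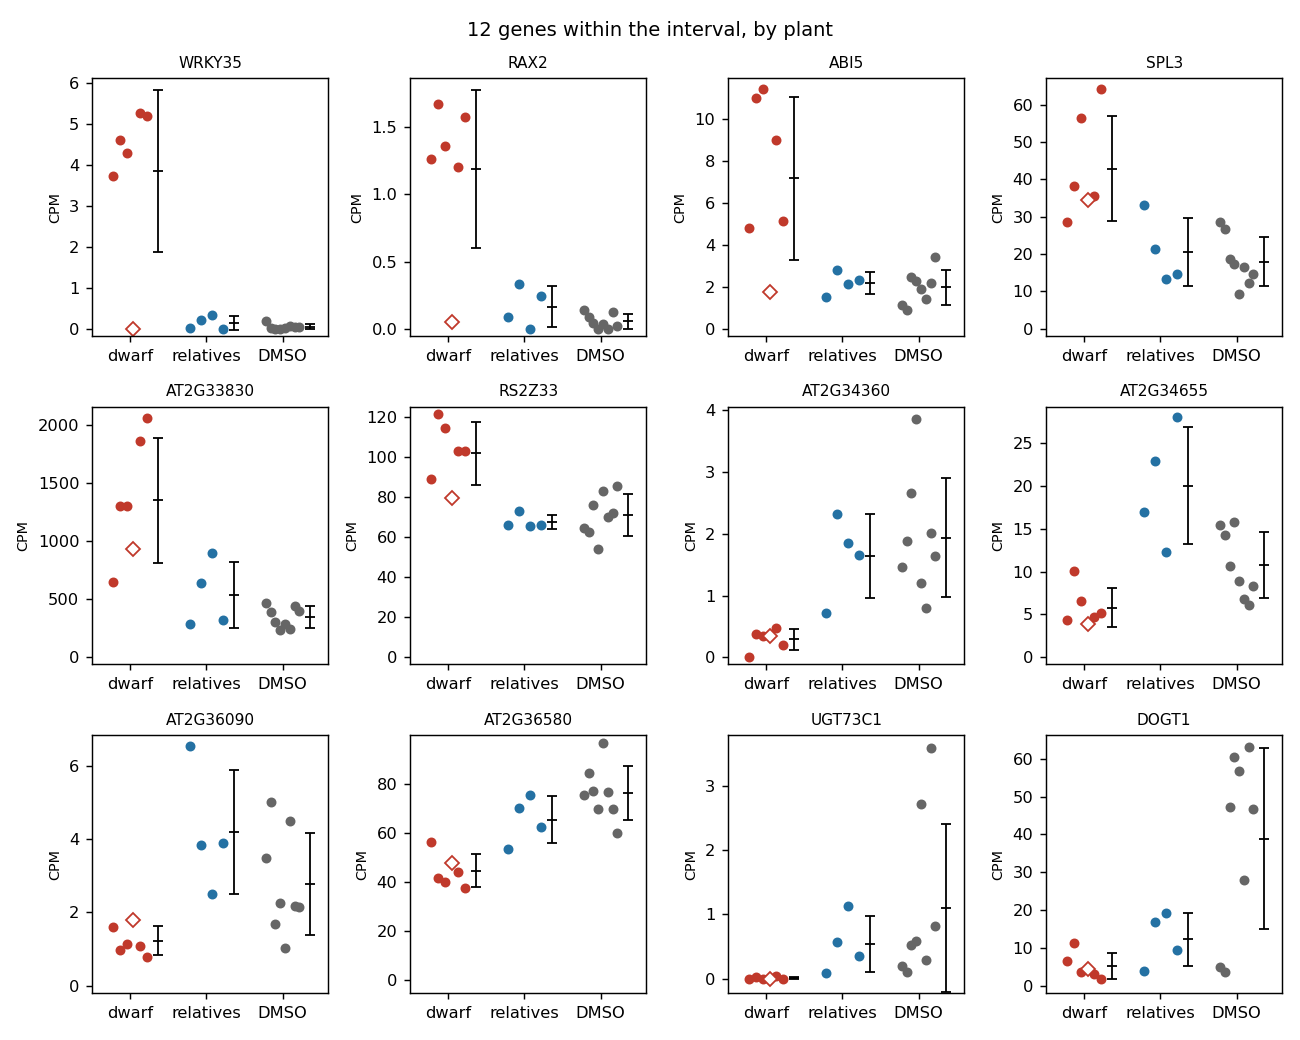
Expression in CPM by plant for 12 genes within the interval, in BR-like dwarf plants (red), relatives (blue) and DMSO plants (grey, without replicate 2), with mean ± SD in black. The open diamond is dwarf replicate 4, which lies with the controls for WRKY35 (0 CPM), RAX2 (0.0503 CPM) and ABI5 (1.74 CPM). Among the 6 genes that are lower in dwarf plants, it overlaps some control plants for AT2G36090 and DOGT1.

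The interval holds transcription factors of several families, and 16 of the 20 listed were members, all tested. Against relatives 1 rose, AT2G33720, 0 fell and 15 did not pass. Against DMSO plants 6 rose, 0 fell and 10 did not pass, with 5 of the 6 called, so 37.5% rose, beside 7.26% of all genes, and 31.25% were called as higher, beside 1.64%. The median log2 fold change of the 16 was 0.54 against relatives and 0.64 against DMSO plants. After AT2G33720, the members called against DMSO plants were WRKY35, RAX2, ABI5 and SPL3. AT2G33720, WRKY35 and RAX2 reached the count minimum in 5 dwarf plants each and in 0, 3 and 2 control plants. Their entry into the fit rested on the dwarf plants, and the list was chosen with earlier results of these data known. The shares of this list are therefore a description.

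WRKY35, of the plant WRKY family, had 3.73, 4.61, 4.28, 0, 5.26 and 5.19 CPM in dwarf replicates 1 to 6. The relatives had 0.0460, 0.240, 0.350 and 0 CPM and the DMSO plants 0 to 0.208 CPM. In 5 of 6 dwarf plants the level was more than that of any control, and in replicate 4 no read was counted. Its change on the log2 scale was 5.83 ± 0.97 against DMSO plants (adjusted p = 0.00111) and 4.59 ± 1.21 against relatives (adjusted p = 0.0575). Without replicate 4 these became 6.11 and 4.85, with adjusted p of 7.73e-05 and 0.00846 in edgeR. Replicate 4 was singled out after the data were seen, and the gene's entry into the fit rested on the dwarf plants. The p-values of WRKY35 are therefore a description.

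RAX2, a MYB factor known for axillary meristem formation, had 1.26, 1.67, 1.36, 0.0503, 1.2003 and 1.57 CPM in dwarf replicates 1 to 6. The relatives had 0.0921, 0.333, 0 and 0.245 CPM and the DMSO plants 0 to 0.139 CPM. Again replicate 4 lay among the controls and the other 5 above them. Its log2 fold change was 4.33 ± 0.88 against DMSO plants (adjusted p = 0.00372) and 2.79 ± 1.06 against relatives (adjusted p = 0.174, or 0.0937 without replicate 4). AT2G33720, WRKY35, RAX2 and the summed shoot meristem markers were all high in the same 5 dwarf plants and near 0 in replicate 4, and the part of meristem RNA in these results was not tested.

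ABI5, a bZIP factor of abscisic acid signalling, had 4.82, 11.02, 11.4, 1.74, 8.98 and 5.13 CPM in dwarf replicates 1 to 6, 1.52, 2.79, 2.12 and 2.33 CPM in relatives and 0.908 to 3.43 CPM in DMSO plants. The log2 fold change was 1.86 ± 0.36 against DMSO plants (adjusted p = 0.00306) and 1.71 ± 0.46 against relatives (adjusted p = 0.062, or 0.00985 without replicate 4). SPL3, which promotes the change to flowering and overlaps the antisense gene AT2G33815 by 1046 bp, had 28.7 to 64.2 CPM in dwarf plants with a median of 36.8 CPM. The relatives had 33.02, 21.4, 13.4 and 14.5 CPM and the DMSO plants 9.36 to 28.5 CPM, so dwarf plants were above all DMSO plants and overlapped 1 relative. Its log2 fold change was 1.26 ± 0.26 against DMSO plants (adjusted p = 0.00419) and 1.06 ± 0.32 against relatives (adjusted p = 0.0919). NF-YB8, a subunit of nuclear factor Y, had a log2 fold change of 0.86 against DMSO plants (adjusted p = 0.019) and 0.98 against relatives (adjusted p = 0.0836). The other 10 factors, E2F3, GRF3 and TTG2 among them, did not pass in either comparison.

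The UGT73C cluster is a row of neighbouring glucosyltransferase genes on the minus strand. Its products attach glucose to small molecules, and those of DOGT1 and UGT73C6 are known to act on brassinosteroids. Of the 6 listed genes, 5 were members and tested. All 5 had negative log2 fold changes in both comparisons, with a median of -1.26 against relatives and -1.94 against DMSO plants, but only UGT73C1 passed against relatives, and 3 passed against DMSO plants (60%, beside 7.03% of all genes), of which 2 were called. UGT73C1, counted in both, reached the count minimum in 0 dwarf and 9 control plants, so it entered the fit through the side where it was high. The list was also chosen with earlier results of these data known, and its shares are a description. Reads from such closely related genes may be assigned to a neighbour, so values of single members are uncertain.

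UGT73C1 was detected in dwarf replicates 2 and 5 only, with 3 counts in all, or 0 to 0.0480 CPM. Relatives had 0.0921, 0.573, 1.12 and 0.358 CPM and the 8 DMSO plants 0.111 to 3.60 CPM, with no overlap. DMSO replicate 2, left out of the fit, had 0 CPM. From the counts, relatives were 49.3-fold above dwarf plants (95% exact counting interval 16.4 to 243) and DMSO plants 94.98-fold (32.3 to 462). The adjusted p was 0.0249 and 0.00174 in edgeR.

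DOGT1 had 1.81 to 11.4 CPM in dwarf plants with a median of 3.95 CPM and 3.87, 16.8, 19.2 and 9.43 CPM in relatives. In DMSO plants it was 4.93 and 3.76 CPM in the 2 plants of line C13 but 27.9 to 63.1 CPM in the 6 plants of C23 and C4_8. Dwarf plants thus overlapped both relatives and line C13. The log2 fold change was -2.92 ± 0.64 against DMSO plants (adjusted p = 0.00597) and -1.26 ± 0.68 against relatives (adjusted p = 0.35). UGT73C6 had 1.28 to 2.19 CPM in dwarf plants and 1.23 to 13.99 CPM in DMSO plants (log2 fold change -1.71 ± 0.50, adjusted p = 0.0282), and its gene lies wholly across the opposite-strand gene AT2G36792.

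Of 14 listed water channels and transporters, 13 were members and tested. Against relatives none passed, and the median log2 fold change was -0.05. Against DMSO plants 1 rose, 5 fell and 7 did not pass, with a median of -0.43. The 5 were 38.5% of the list, beside 7.03% of all genes, and 4 of them were called (30.8%, beside 1.03%). The called genes were ABCC2, a vacuolar ABC transporter, CAT5, a cationic amino acid transporter, ProT3, a proline transporter, and UMAMIT12, of an amino acid transporter family. The fifth was the aquaporin PIP2B at -0.78 (adjusted p = 0.019), and ALS3, known for aluminium tolerance, rose by 0.58 (adjusted p = 0.020).

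ABCC2 had 39.6 to 66.6 CPM in dwarf plants with a median of 63.1 CPM, 65.4, 90.6, 90.8 and 93.3 CPM in relatives and 72.7 to 152 CPM in DMSO plants. Dwarf plants were below all DMSO plants, of which those of line C13 were the lowest at 72.7 and 79.0 CPM, and overlapped 1 relative. DMSO replicate 2, the C13 plant left out of the fit, had 60.6 CPM, within the range of the dwarf plants. On the log2 scale the change was -1.05 ± 0.19 against DMSO plants (adjusted p = 0.00199) and -0.51 ± 0.22 against relatives (adjusted p = 0.232). UMAMIT12 had 9.13 to 18.9 CPM in dwarf plants and 6.95, 19.2, 13.3 and 17.1 CPM in relatives, against 20.3 to 48.1 CPM in DMSO plants. Here dwarf plants and relatives overlapped throughout, and both lay below the DMSO plants (dwarf plants -1.18 ± 0.25, adjusted p = 0.00473). CAT5 and ProT3 changed by -2.09 ± 0.48 and -1.98 ± 0.40 against DMSO plants (adjusted p = 0.00861 and 0.0037) and by -1.17 and -1.20 against relatives (adjusted p = 0.265 and 0.164). CAT5 had 0.326 to 1.03 CPM in dwarf plants and 0.506 to 2.07 CPM in relatives. With DMSO replicate 2 included, it had 0.885 to 2.98 CPM in line C13, 0.947 to 2.84 CPM in C4_8 and 3.92 to 6.27 CPM in C23. Dwarf plants thus overlapped lines C13 and C4_8.

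Of 10 listed hormone genes (gibberellin, auxin, cytokinin), 6 were members and 5 were tested. None passed against relatives, and 1, AT2G33830, rose against DMSO plants and was called. The median log2 fold change was 0.24 and 0.47. AT2G33830 is annotated as dormancy and auxin associated. It had 650 to 2064 CPM in dwarf plants with a median of 1303 CPM, 290, 639, 896 and 323 CPM in relatives and 231 to 471 CPM in DMSO plants. Dwarf plants were above all DMSO plants and overlapped 1 relative. The log2 fold change was 1.97 ± 0.29 against DMSO plants (adjusted p = 0.000507) and 1.33 ± 0.36 against relatives (adjusted p = 0.0633, or 0.0416 without replicate 4). The auxin exporter gene ABCB1, at 124 to 174 CPM in dwarf plants and 115 to 137 CPM in relatives, had a log2 fold change of 0.24 in both comparisons and did not pass in either. LOG3, of a cytokinin-activating enzyme family, was below 1 CPM in each of the 3 groups and did not pass in either comparison. AT2G36350, a protein kinase in no list, was the remaining call against DMSO plants, at 7.98 to 23.1 CPM in dwarf plants, 11.5, 11.3, 11.9 and 11.3 CPM in relatives and 5.00 to 10.4 CPM in DMSO plants (log2 fold change 1.14 ± 0.19, adjusted p = 0.00111 against DMSO plants and 0.268 against relatives).

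All 8 listed ribosome and ubiquitin genes were tested, 0 passed in either comparison, and their medians were 0.01 and -0.03. Their log2 fold changes against relatives ran from -0.15 to 0.22, with AT2G36160, a ribosomal protein of the S11 family, at 114 to 143 CPM in dwarf plants and 103 to 113 CPM in relatives. For 10 cytoskeleton, cell division and chromatin genes, 0 passed against relatives and 1, ACT1, fell against DMSO plants, with medians of 0.07 and 0.12 and ranges of -0.67 to 0.43 and -0.51 to 0.71. MOR1, which organises microtubules, had 80.8 to 106 CPM in dwarf plants and 72.8 to 90.5 CPM in relatives (log2 fold change 0.21, adjusted p = 0.257).

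For 9 plastid and photorespiration genes the medians were -0.06 and -0.11. None passed against relatives. Against DMSO plants 1 rose, AT2G35120 (1.00 ± 0.21, adjusted p = 0.00454), and 1 fell, AT2G35490, a plastid lipid-associated protein (-0.30, adjusted p = 0.0265). GDCH, the H-protein of glycine decarboxylase in photorespiration, had 296 to 454 CPM in dwarf plants and 326 to 588 CPM in relatives (log2 fold change -0.33, adjusted p = 0.275). For 10 cell wall and phenylpropanoid genes the medians were 0.01 and 0.11, with 0 passing against relatives and 1, the receptor-like kinase FEI2, rising against DMSO plants (0.31, adjusted p = 0.0389). XTH32, which remodels xyloglucan, had 2.69 to 10.3 CPM in dwarf plants and 1.52 to 8.24 CPM in relatives and did not pass (adjusted p = 0.586).

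For 8 tested members of 9 defence and stress genes, 0 passed against relatives. Against DMSO plants 1 rose, ACD11, a sphingolipid transfer protein (0.35, adjusted p = 0.036), and 1 fell, YLS9 (-5.07 ± 1.55, adjusted p = 0.0333), and the medians were -0.08 and -0.19. YLS9 had 0 to 0.0960 CPM in dwarf plants and 9.07 CPM in DMSO replicate 8, with 0 to 0.911 CPM in the other 7. Without DMSO replicate 8 its log2 fold change was -2.77 and the adjusted p 0.118. ATL9, a RING-type ubiquitin ligase with a role in fungal defence, had 0.780 to 2.81 CPM in dwarf plants and 0.225 to 0.527 CPM in relatives without overlap, and did not pass (1.78 ± 0.50, adjusted p = 0.0716).

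**Figure D5:**
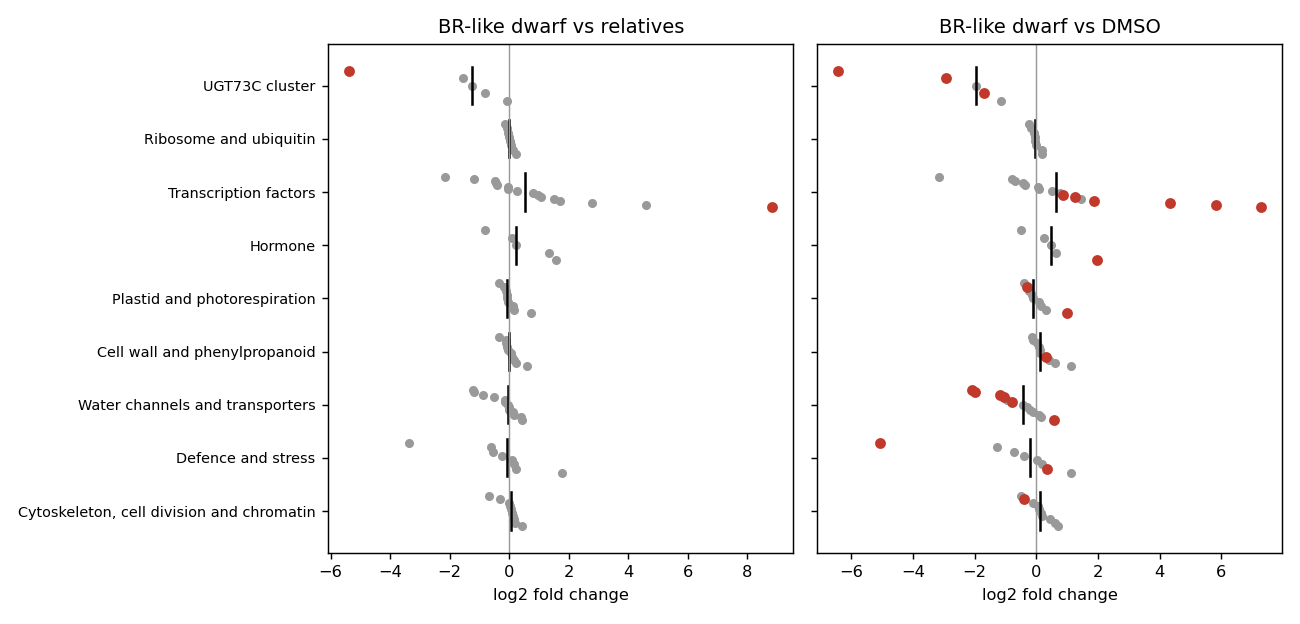
Log2 fold changes of the tested genes of 9 functional lists within the interval, for BR-like dwarf plants against relatives (left) and DMSO plants (right). Each point is a gene, red with an adjusted p below 0.05, and black bars are list medians, which run from -1.26 to 0.54 on the left and from -1.94 to 0.64 on the right.

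The other phenotypic lines of the study served to ask which differences between phenotypic plants and relatives were larger or smaller in the BR-like dwarf line. The comparison set BR-like dwarf plants against their relatives minus the mean of the same difference in the short-internode dwarf and virescent lines. Of 313 tested members, 3 were called (0.934% of 19925 genes). At an adjusted p of 0.05, 25 passed (7.21% of all genes), 20 with a positive difference (4.57%) and 5 with a negative one (2.64%). AT2G33720 is counted among the 20, though it entered through the BR-like dwarf plants alone, so its part in these counts is a description. WRKY35 and LOG3 are also among the 20. Only 3 control plants reached the count minimum of the main fit for each, so their part is a description too. The 3 called members were AT2G34655 at -2.43 (adjusted p = 0.000626), ABI5 at 2.57 (adjusted p = 0.00469) and AT2G37130, a peroxidase, at 3.91 (adjusted p = 0.00708). The last was named after its values were seen. Without the 3 relatives of the other lines that the authors left out, the adjusted p was 0.000244, 0.0115 and 0.0137.

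AT2G34655 had a median of 4.90 CPM in BR-like dwarf plants against 19.9 CPM in their relatives, but 39.5 CPM in short-internode dwarf plants against 22.0 CPM in theirs and 17.4 CPM in virescent plants against 15.6 CPM. It was higher in short-internode dwarf plants (log2 fold change 0.98, adjusted p = 0.0294), opposite to the BR-like dwarf plants. AT2G37130 had a median of 84.8 CPM in BR-like dwarf plants with a range of 10.4 to 208 CPM, replicate 4 the lowest, against 20.8 CPM in relatives. In virescent plants it was lower than in their relatives, at a median of 6.71 against 37.6 CPM. WRKY35 did not exceed 0.370 CPM in any library outside the BR-like dwarf plants, and its difference between lines was 5.52 (adjusted p = 0.0191). Its entry into the main fit rested on the dwarf plants, so this p-value is a description. RAX2 reached 1.76 CPM in the white plant of the variegated line, above every BR-like dwarf plant, and 0.576 CPM at most in the other libraries.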

How the data were processed

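Poly(A) RNA from single rosettes was sequenced in 53 libraries, with 29739361 to 116654254 estimated counts deposited for each. Per the supplementary methods, the authors trimmed reads with Trim Galore and quantified Araport11 transcripts with Salmon; estimated counts were deposited per gene, and how transcripts were joined is not given in the sources used here; the library kit kept strand. Versions are not given in the sources used here. Of the deposited values 9.27% were not whole, and all were rounded. A deposited column of mean normalized counts, a signal the authors made with DESeq2 size factors, was used only to find which library they had left out: without DMSO replicate 2 its median error was 0.0978%, and 1.18% for the next best choice. The authors' fold changes, standard errors, Wald statistics and p-values were not used. Every count column belonged to a sample.

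Genes were placed by TAIR10.1, in which 27391 of 27501 identifiers were found, and the sequences are credited to RefSeq. The 6 BR-like dwarf plants, 4 relatives and 8 DMSO plants were fitted together with edgeR 4.0.16 in R 4.3.3 (TMM scaling, quasi-likelihood test, prior count 0.125), over 19515 genes with at least 10 normalised counts in at least 4 libraries, with Benjamini-Hochberg adjustment over all of them. Standard errors are the absolute log2 fold change from a second fit without a prior count, over the square root of F. The printed fold changes use the prior count of 0.125. A call is an adjusted p below 0.01 with a log2 fold change beyond 1. CPM values are counts over the library total scaled by TMM factors, computed over all 53 libraries. The script was tested on simulated counts. Python 3.11.15 with pandas 2.3.3 and scipy 1.17.1 was used for summaries and 95% exact intervals, which, like the floor of 3 counts, cover counting error only. Replicates are single plants, many of them of the same M2 family, and p-values measure the spread between them.

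The genes and the lists were chosen with earlier results of these data known. Genes were named as the 6 tested members nearest each end, every member called against relatives, members past the thresholds in both comparisons with the same sign, and up to 4 of each list by smallest p against relatives. Calls against DMSO plants outside that rule (AT2G36350, for example) were added after their values were seen. Alternatives were DESeq2 1.42.0, DESeq2-type size factors in edgeR, no count filter, all 9 DMSO plants, other control groups, each M2 family alone, a replicate block and leaving out each of the 18 libraries. The emphasis on dwarf replicate 4 and the counts without genes that entered through 1 side were chosen after seeing the data. The 8 genes left out by name are not reported here.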

Additional observations from a re-analysis of the deposited data

Results flagged for a closer look

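Within groups of 4 to 10 plants, 19 genes were checked for a plant far from the rest, in 57 groups, and 8 stood out. Chance gives about 1 in 20 groups, though not for genes near 0. In the BR-like dwarf plants the plants that stood out were replicate 4 for WRKY35 (0 CPM, the next plant at 3.73 CPM) and RAX2 (0.0503 CPM, the next at 1.2003 CPM), and replicate 6 for ABCC2 (39.6 CPM, the next at 61.6 CPM). In the relatives they were replicate 1 for ABCC2, the lowest at 65.4 CPM, and replicate 2 for RS2Z33, the highest at 72.96 CPM. In the DMSO plants they were replicate 7 for AT2G33720 (0.0421 CPM, the others at 0), replicate 1 for WRKY35 (0.208 CPM) and replicate 5 for ProT3 (13.2 CPM, the next at 7.41 CPM). Where all other plants of a group are at 0, any count stands out, so the 8 are not set against the chance rate.

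For 8 of the named genes the difference between phenotypic plants and relatives was itself different in the BR-like dwarf line from the mean of the 2 other lines, by edgeR's test of that difference. On the log2 scale, BR-like dwarf line minus the other lines, AT2G33830 differed by 1.56 (adjusted p = 0.0275), WRKY35 by 5.52 (0.0191), ABI5 by 2.57 (0.00469), AT2G37130 by 3.91 (0.00708) and RS2Z33 by 0.68 (0.00793). AT2G34655 and AT2G36090 differed the other way, by -2.43 (0.000626) and -1.74 (0.0142). LOG3, below 1 CPM in the 3 groups of the main comparisons, differed by 4.13 (0.0447). Without the 3 relatives of the other lines that the authors left out, the adjusted p of LOG3 was 0.124, and the other 7 kept adjusted p between 0.000244 and 0.0324. AT2G33720 is not counted here, because it entered the table through the BR-like dwarf plants alone. WRKY35 and LOG3 reached the count minimum of the main fit in 5 and 4 dwarf plants and in 3 control plants each. Their p-values here are therefore a description.

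In libraries outside the comparisons, AT2G33720 had 8 counts in replicate 1 of the green plants of the variegated line with variegated progeny, above the 2 counts that were the most in any control plant.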

How the results depend on the processing

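The counts of members depended on the test and on single plants. Calls against relatives went from 0 in edgeR to 11 in DESeq2, 11 with all controls as 1 group and 1 with dwarf plants of M2 family 1A_20 alone, and from 0 to 5 over the fits that leave out 1 plant. Those against DMSO plants went from 14 to 6 with family 1A_14 alone and 2 with 1A_20 alone, and from 7 to 16 over the same fits. At an adjusted p below 0.05 the 7 members against relatives became 23 in DESeq2, 46 with all controls as 1 group, 3 with no DMSO plants in the fit and 2 with family 1A_14 alone, and 0 to 21 with 1 plant left out, and the 49 against DMSO plants became 28 with family 1A_14 alone and 28 to 63 with 1 plant left out. A single family leaves 3 dwarf plants. For the fits without a share of all genes given earlier, a change in the members cannot be told from a change in all genes. Calls between relatives and DMSO plants were 0 in all these edgeR and DESeq2 fits. The median log2 fold change against relatives of 0.02311 was -0.00372 with all controls as 1 group and 0.0478 with family 1A_14, and 0.005525 to 0.05851 with 1 plant left out. Against DMSO plants the 0.01949 was 0.0357 in DESeq2, -0.0372 with family 1A_20 and -0.02165 to 0.03541 with 1 plant left out. Other scaling, no count filter and all 9 DMSO plants kept these counts within 1.5 times. The comparison with the other lines gave 25, 23 and 26 members, and the median absolute change within 50 kb was 0.1528 and 0.1368 for the left and right ends alone.

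Replicate numbers do not pair these plants: of 12 pairs of the same number, 5 had deviations correlated above 0.1, with r from -0.378 to 0.597. With the number as a replicate block there were 0 calls against DMSO plants, 0 members against relatives and 15 against DMSO plants at an adjusted p below 0.05, and a median of 0.04899 against relatives. The block turned AT2G35290 against DMSO plants to 0.2702 and AT2G37610 against relatives to 0.5042.

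For single genes, 2662 values stayed on the same side of 0.05, 171 lost it, 78 gained it and 47 changed sign, none of these from a value that passed 0.05. With family 1A_20 alone, AT2G33735 was -0.3721 against relatives and -0.4558 against DMSO plants, AT2G33760 0.04191, AT2G37190 -0.09383 and UMAMIT12 0.3422 against relatives, and PAL1 -0.1108 and DOF2.4 -0.05667 against DMSO plants. With family 1A_14 alone, AT2G33760 was -0.1245 against DMSO plants and PTAC12 0.02113 against relatives. With all controls as 1 group, UBQ7 was -0.01907 and AT2G37610 0.215. UMAMIT12 against relatives was 0.0002562 with all 9 DMSO plants and 0.002806 with none. With 1 plant left out, values against relatives ran from -0.1013 to 0.3021 for AT2G33735, -0.2601 to 0.07718 for AT2G33760, -0.01471 to 0.1103 for AT2G37190, -0.0694 to 0.5235 for AT2G37585, -0.4079 to 1.007 for AT2G37610, -0.6095 to 0.02677 for PAL1 and -0.2217 to 0.1728 for UMAMIT12. Against DMSO plants they ran from -0.172 to 0.2019 for AT2G33735, -0.1215 to 0.1616 for AT2G33760, -0.7337 to 0.08761 for AT2G35290, -0.1134 to 0.2733 for DOF2.4 and -0.1387 to 0.2849 for PAL1. The cause of these changes was not tested. For a gene with 0 counts in a group, 3 counts is about the 95% upper bound on the expected count there, from counting error only.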
